A study of Mus musculus with 6 samples.

Results

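Transcripts of collagens and of the interstitial matrix were compared between mouse epiblast stem cells grown without and with Activin A. The list holds 41 genes out of 52609 annotated genes, 13 of them collagen genes, and was chosen by gene name and known role with earlier results of these data known. For each gene the estimated reads and the TPM (a level scaled by transcript length and library total) of all its annotated transcripts were summed. All 41 genes were among the 15448 genes that passed the filter on low counts.

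Epiblast stem cells are primed pluripotent cells derived from dissected epiblast. Per the labels, the cultures grew on gelatin and inactivated mouse embryonic fibroblasts (feeder cells), with serum replacement at 20%. The 3 libraries without Activin A and the 3 libraries with Activin A at 20 ng/mL shared everything else that the labels name, namely 10 ng/mL of FGF2, 5 µM of IWP2 and 2 µM of the compound SB431542. IWP2 stops Wnt secretion, and SB431542 inhibits the type I receptors of Activin, Nodal and TGF-beta, so both groups carried an inhibitor of the receptor that Activin A uses. The series is titled for the effect of Activin A on the allocation of these cells to ectoderm. Libraries held 13567995 to 14992042 estimated reads without Activin A, and 9946521 to 16350923 with it. The growth factor label of replicate 1 without Activin A names Activin A, against the title of that sample, which set its group here. The design text speaks of 2 lines, which the sample labels do not distinguish, so a difference of line and a difference in Activin A cannot be told apart. No label says that the replicates were separate cultures, and every p-value below therefore measures the spread between these libraries, which may be technical. On the first principal component, with 55.6% of the variance, the groups stood apart, and replicate 3 with Activin A, the shallowest library, stood apart from the others on the second.

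Collagens are made as procollagen chains that are hydroxylated, folded into triple helices with the help of a chaperone, secreted, trimmed and then crosslinked by lysyl oxidases. Fibrillar collagens form the cables of connective tissue, network collagens form the basement membrane on which an epithelium such as the epiblast rests, and microfibrils, glycoproteins and proteoglycans bind the fibrils to each other and to cells. Embryonic fibroblasts are a known source of interstitial matrix, and TGF-beta family signals are well-known regulators of matrix genes in fibroblasts.

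Without Activin A the matrix genes moved in both directions. The chains of types I and V collagen, the basement membrane chains Col4a1, Col4a2 and Col18a1 and the abundant glycoproteins Sparc, Thbs1 and Fn1 were higher, while Col3a1, type VI collagen, the small proteoglycans Dcn and Bgn, the crosslinking enzyme Lox and the elastic fibre genes Eln and Fbln2 were lower. Of the 41 genes, 14 were higher (34.1%, against a background of 14.0% of all tested genes) and 15 were lower (36.6%, against 15.2%) at an adjusted p of 0.05 (edgeR quasi-likelihood test, Benjamini-Hochberg over all tested genes). Calls in either direction covered 70.7% of the list and 29.2% of all tested genes. The list was chosen with earlier results of these data known, so these shares are a description and not a test. Calls of at least 1.5-fold numbered 5 higher (background 3.58%) and 6 lower (background 7.06%). The libraries of the groups did not overlap in normalized counts for 17 genes that were higher and 18 that were lower, where the shares over all tested genes were 21.3% and 21.6%, or 42.9% in all. The median log2 fold change of the list (without minus with Activin A) was -0.08 with a range of -1.21 to 0.78, beside a median of 0.00 over all tested genes. Below, a value after ± is the standard error of a log2 fold change unless SD is named. Among the 13 collagens, 7 were higher, 5 lower and 1 was not called, and among the other 28 genes 7 were higher, 10 lower and 11 not called. The list as a whole took 0.579% to 0.586% of estimated reads in the libraries without Activin A and 0.480% to 0.503% in those with it.

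**Figure D1:**
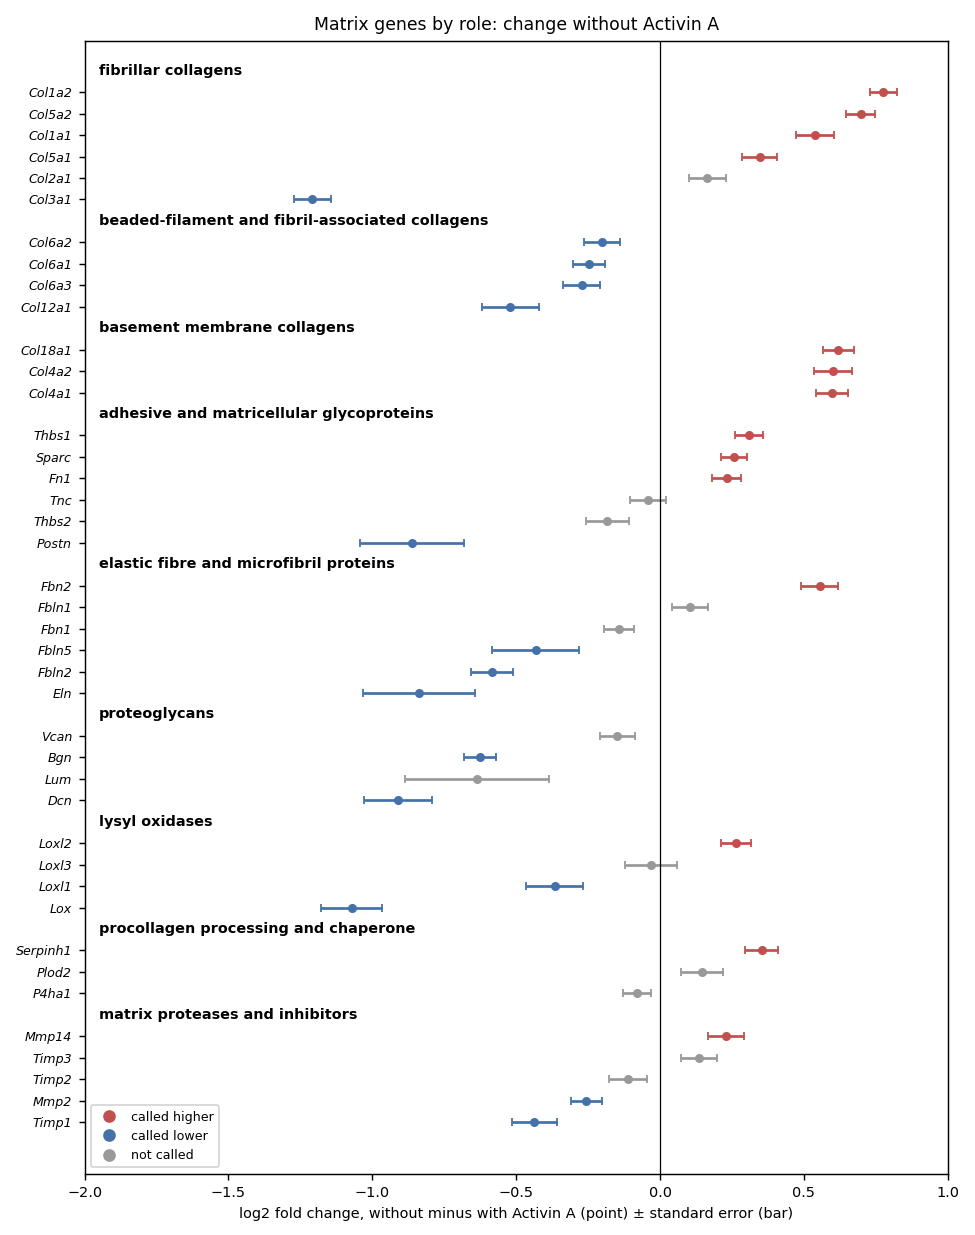
Log2 fold change (without minus with Activin A, horizontal axis) of the 41 matrix genes grouped by role, with standard errors as bars and colours for the 14 genes called higher, the 15 called lower and the 12 not called. All 3 basement membrane chains lie right of 0 and all 4 beaded-filament and fibril-associated chains left of it, and Col3a1 lies at -1.21, far from the other fibrillar collagens.

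The cultures hold stem cells and fibroblasts, and in such bulk RNA fewer cells of a type cannot be told apart from less RNA per cell. Of 25 listed fibroblast markers, 20 passed the count filter, of which 5 were higher (25.0%, against 14.0% of all tested genes), 3 lower (3 of 20, against 15.2%) and 12 not called. The summed level of the list was 1083 to 1104 CPM (read counts after TMM scaling to a common library total) without Activin A and 756 to 811 CPM with it. Most of that sum came from Acta2 and Tagln, genes of the contractile apparatus that are also active outside fibroblasts. With these 2 genes set aside, the rest of the sum was lower without Activin A than with it. Acta2 averaged 407 CPM without and 168 CPM with Activin A, and Tagln 449 CPM without and 313 CPM with. Also called higher were Cd34 (8.80 CPM without and 5.24 CPM with), Lsp1 (14.1 CPM without and 8.51 CPM with) and Cnn1 (62.4 CPM without and 48.4 CPM with). Called lower were Pdpn (53.3 CPM without and 125 CPM with), Thy1 (6.26 CPM without and 14.0 CPM with) and Dpt (0.426 CPM without and 0.951 CPM with), of which Dpt lost its call on leaving out any 1 library. The mean of Dpt without Activin A lies below what the count filter asks for. Dpt was thus tested only because of its libraries with Activin A. Among the 12 that were not called, Pdgfra (9.94 CPM without and 10.0 CPM with, log2 fold -0.01 ± 0.10 SE), Twist1 (0.08 ± 0.18) and Twist2 (-0.03 ± 0.21) lay near 0. These 3 do not stand for all 12, since others of the 12 did separate the groups. The libraries did not overlap in CPM for 6 of the 20 tested markers that were higher (against 21.3% of all tested genes) and 5 that were lower (against 21.6%). The fibroblast markers that failed the filter, Fap, Pi16, Mfap5, Meox2 and Tcf21, averaged under 1 CPM in both groups. The part of fibroblasts in the matrix results was not tested. Markers of the stem cells were all called: the sum over 10 epiblast markers was 1313 to 1339 CPM without and 1920 to 1953 CPM with Activin A. Of the 10, 2 were higher (20%, against 14.0% of all tested genes) and 8 lower (80%, against 15.2%). Their log2 fold changes ran from -1.98 to 0.67. The lower ones included Nanog (59.5 CPM without and 235 CPM with) and Pou5f1 (121 CPM without and 374 CPM with).

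**Figure D2:**
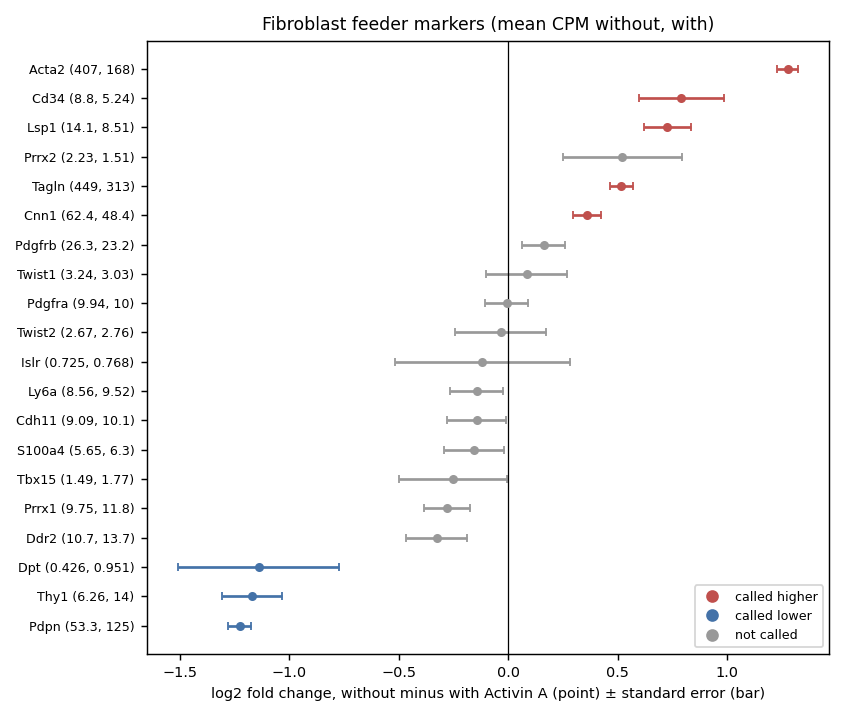
Log2 fold change (without minus with Activin A, points) ± standard error (bars) of the 20 tested fibroblast markers, with the mean CPM without and then with Activin A beside each name. Acta2 at 1.28 and Pdpn at -1.23 mark the ends, and 12 markers between them were not called.

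Levels between genes were compared in TPM. Sparc, a secreted collagen-binding glycoprotein, stood highest with 370 to 389 TPM without and 297 to 325 TPM with Activin A. Serpinh1, the collagen chaperone of the endoplasmic reticulum, followed with 290 to 299 TPM without and 204 to 211 TPM with. Thbs1 came next in both groups, at means of 80.6 TPM without and 64.0 TPM with. The order below it differed between the groups: Col18a1 averaged 73.7 TPM without and 46.5 TPM with, Col1a1 66.5 TPM without and 37.7 TPM with, Fn1 54.1 TPM without and 50.2 TPM with, and P4ha1 46.0 TPM without and 47.8 TPM with. The lowest levels were those of Lum (0.319 to 0.506 TPM without and 0.511 to 0.663 TPM with) and Eln (0.388 to 0.416 TPM without and 0.736 to 0.768 TPM with). Short annotated fragments carry weight in such sums. Coding transcripts over 1000 bases held 94.8% of the reads but 20.1% of the TPM of Vcan, and 85.9% of the reads but 24.6% of the TPM of Col3a1, so the order of levels is approximate for these genes and changes below are given in CPM.

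**Figure D3:**
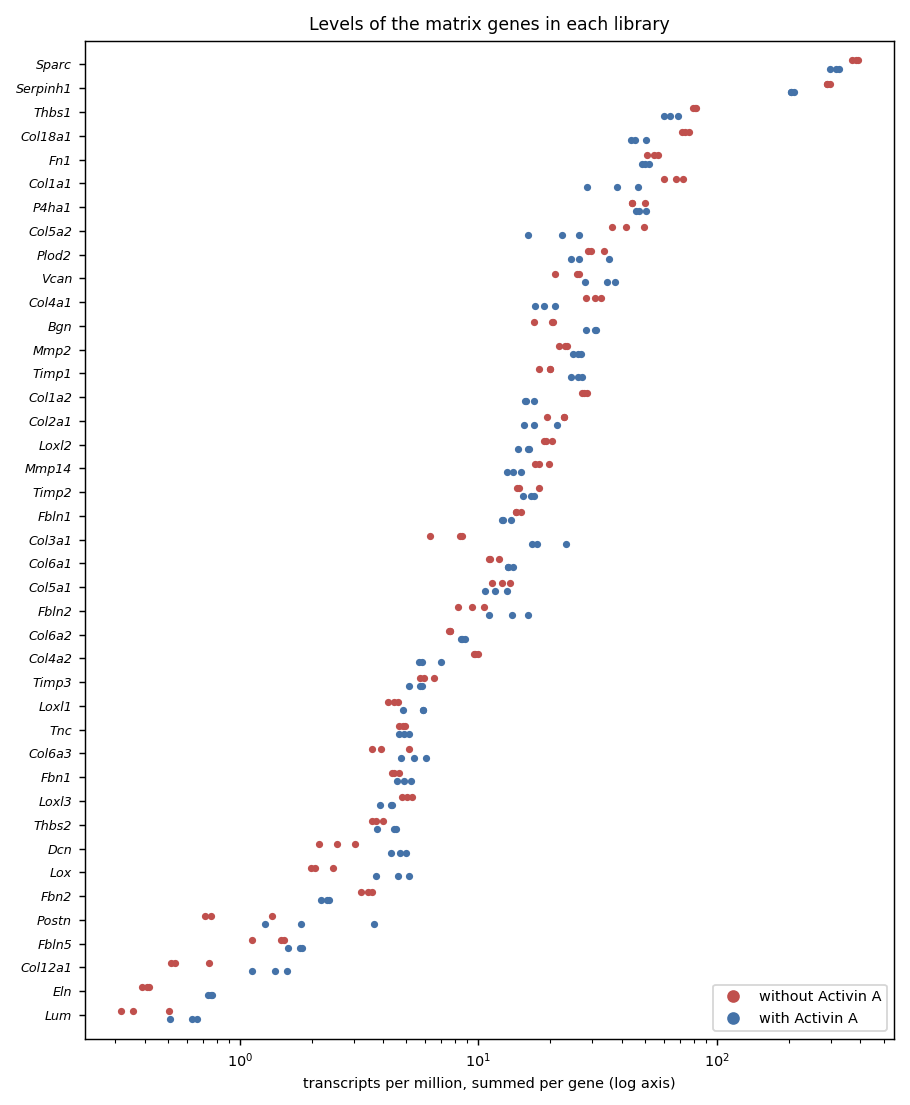
TPM per gene (log axis) in each library for the 41 matrix genes, ordered by mean level, with the libraries without Activin A in red above those with it in blue. Levels span from Lum and Eln, below 1 TPM in every library, to Sparc and Serpinh1, above 200 TPM in every library.

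Among the fibrillar collagens, 4 of 6 genes were higher without Activin A, 1 was lower and 1 was not called. Type I collagen, the main fibril former of connective tissue, rose in both of its chains. Col1a2 (ENSMUSG00000029661, GRCm38 chr6:4504814-4541544, plus strand) had 215, 210 and 212 CPM in the libraries without Activin A, and 126, 126 and 120 CPM in those with it. All 3 libraries without Activin A lay above all those with it, a log2 fold change of 0.78 ± 0.05 (SE; edgeR adjusted p = 1.61e-08). Col1a1 (ENSMUSG00000001506, chr11:94936224-94953042, plus strand) had 333, 344 and 345 CPM without, and 251, 247 and 205 CPM with Activin A. Its groups did not overlap either, and its log2 fold change was 0.54 ± 0.07 (edgeR adjusted p = 2.07e-05). The ratio of Col1a1 to Col1a2 reads was 1.60 ± 0.05 without and 1.89 ± 0.15 with Activin A (SD, n = 3 each; exact permutation p = 0.1, two-sided, the smallest that 3 against 3 can give).

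Type V collagen, which co-assembles with type I and starts fibrils, was also higher in both chains on the list. Col5a2 (ENSMUSG00000026042, chr1:45374321-45503282, minus strand) had 245, 237 and 241 CPM without, and 144, 147 and 156 CPM with Activin A, again without overlap and at a log2 fold change of 0.70 ± 0.05 (edgeR adjusted p = 7.16e-08). Col5a1 averaged 111 CPM without and 86.8 CPM with Activin A (log2 fold change 0.35 ± 0.06). That call did not hold with limma-trend on TPM (0.07) or with an offset for transcript length (0.03). Col2a1, the fibrillar collagen of cartilage, averaged 123 CPM without and 110 CPM with and was not called (0.16 ± 0.06, edgeR adjusted p = 0.0674). It passed with the replicate number as a block (edgeR adjusted p = 0.0469), with no count filter (0.17) and after removal of trends on GC content and transcript length (0.17).

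Col3a1, whose chains form homotrimers that mix with type I collagen in distensible tissues, moved against the other fibrillar genes. Col3a1 (ENSMUSG00000026043, chr1:45311538-45349706, plus strand) had 20.2, 19.5 and 20.1 CPM without, and 44.7, 46.8 and 46.9 CPM with Activin A. The groups stood far apart and the spread within each was small, with a log2 fold change of -1.21 ± 0.07 (edgeR adjusted p = 4.17e-09). This was the largest fall on the list. Col3a1 and Col5a2 lie 24.6 kb apart on opposite strands of chromosome 1 and moved in opposite directions. The Col3a1 reads per Col5a2 read, a value that no scaling between libraries can alter, were 0.0826, 0.0826 and 0.0834 without, and 0.311, 0.320 and 0.301 with Activin A. Per Col1a1 read they were 0.0606, 0.0568 and 0.0583 without, and 0.179, 0.190 and 0.229 with. Neither ratio overlapped between the groups (exact permutation p = 0.1 for each, two-sided, the smallest possible, and 0.2 after Benjamini-Hochberg adjustment over 6 ratios). About 1.12% of the 31-base words of Col3a1 also occur in other genes. The gene that shares the most is Gm47302, which overlaps the exons of Col3a1 on the same strand.

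**Figure D4:**
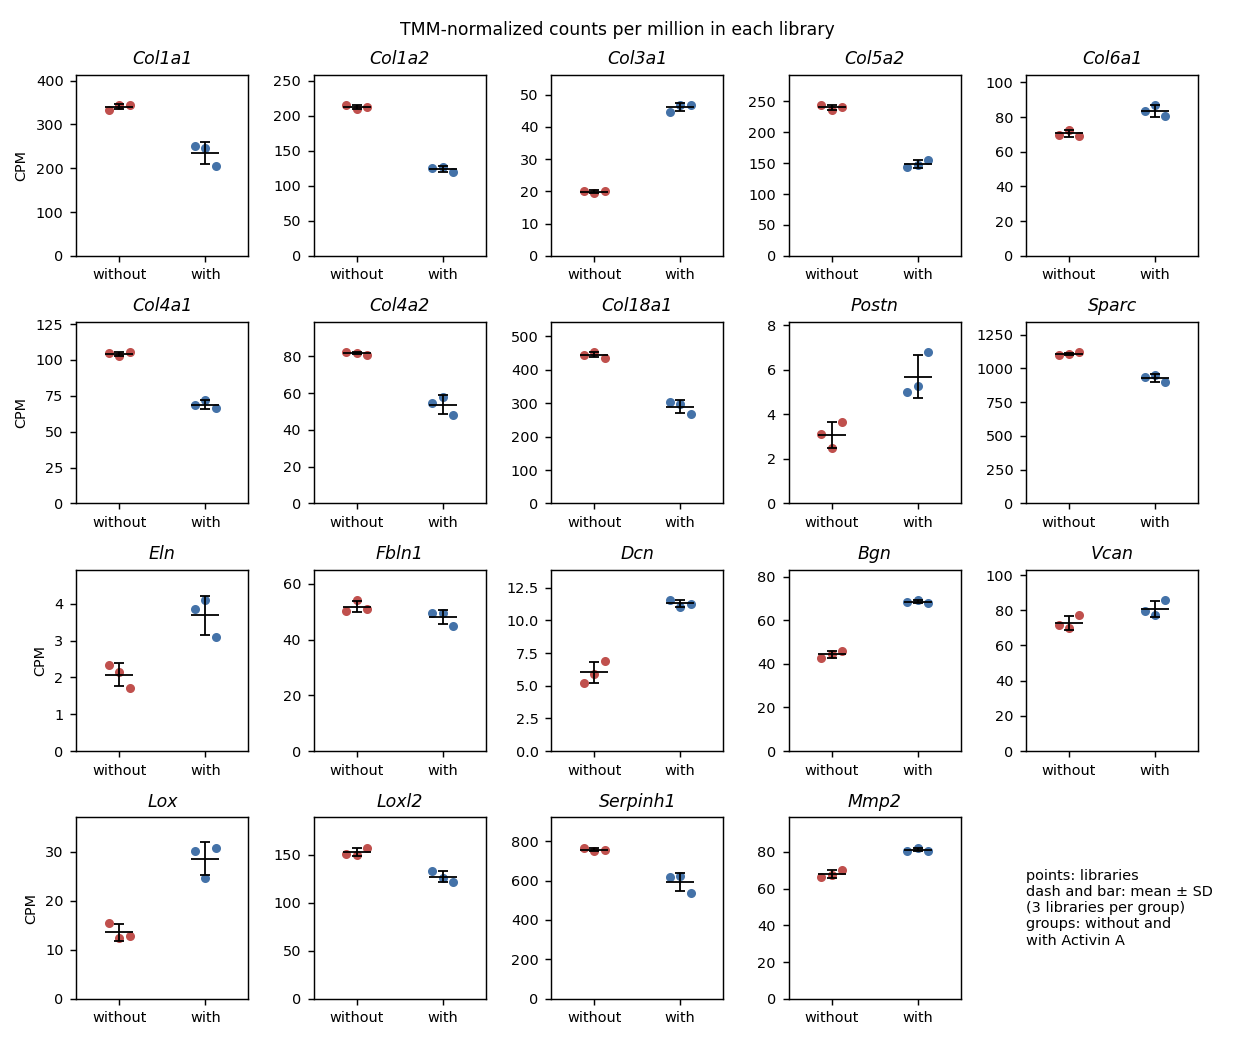
TMM-normalized CPM in each library for the 19 genes given by library, each panel with its own linear axis from 0, the libraries without Activin A left of those with it, and dashes and bars for mean ± SD (n = 3 each). Col1a1, Col1a2 and Col5a2 are higher without Activin A and Col3a1 lower, while Fbln1 and Vcan show the small differences of genes that were not called.

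The 250 bases before the start of Col1a2 and of Col3a1 are shown because these genes form fibrils together and moved in opposite directions. Sequences are those of RefSeq on GRCm38.p6, chr6:4505368-4505617 for Col1a2 and chr1:45311288-45311537 for Col3a1, both on the plus strand and written 5′ to 3′, and the RefSeq start of Col1a2 lies inside the gene span that GENCODE gives. Capitals mark CCAAT, the box bound by NF-Y, and CAGAC, the core of a SMAD binding element, on either strand.
Col1a2: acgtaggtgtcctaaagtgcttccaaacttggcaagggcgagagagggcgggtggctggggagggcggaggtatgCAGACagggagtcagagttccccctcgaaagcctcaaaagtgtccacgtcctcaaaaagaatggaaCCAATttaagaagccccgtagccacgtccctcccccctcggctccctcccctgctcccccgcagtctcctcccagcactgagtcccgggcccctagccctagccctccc
Col3a1: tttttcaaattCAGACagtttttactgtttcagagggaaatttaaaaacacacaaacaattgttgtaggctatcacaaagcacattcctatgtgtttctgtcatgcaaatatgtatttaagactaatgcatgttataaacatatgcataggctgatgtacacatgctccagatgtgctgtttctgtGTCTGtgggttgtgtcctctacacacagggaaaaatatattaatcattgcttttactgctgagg
The Col1a2 window holds 1 CCAAT box, 1 CAGAC and 2 copies of GGGCGG, the core of the GC box bound by SP factors. The Col3a1 window holds no CCAAT and no GGGCGG, 2 copies of CAGAC (1 read as GTCTG) and 1 TATAAA. Promoter windows were at hand for 25 of the 41 genes, 31 windows in all. On either strand of their 250 bases, CCAAT occurred in 32.3% of these windows and in 33.8% of all 32851 windows of the table. GGGCGG occurred in 64.5% of the list's windows and 32.7% of all, CAGAC in 48.4% and 42.2%, and TATAAA in 16.1% and 12.4%. None of the 4 motifs contains another, and a match is a description of the sequence, not a bound site.

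The beaded-filament and fibril-associated collagens were lower without Activin A in all 4 genes. Type VI collagen, a microfibril-forming collagen that surrounds cells, fell by similar amounts in its 3 chains on the list. Col6a1 (ENSMUSG00000001119, chr10:76708792-76726168, minus strand) had 69.8, 72.8 and 69.2 CPM without, and 83.6, 87.2 and 80.4 CPM with Activin A. Its groups did not overlap (log2 fold change -0.25 ± 0.06, edgeR adjusted p = 0.0036). Col6a3 averaged 27.6 CPM without and 33.4 CPM with (-0.27 ± 0.06), and the neighbour of Col6a1, Col6a2, averaged 45.6 CPM without and 52.3 CPM with (-0.20 ± 0.06, edgeR adjusted p = 0.0271). Col6a2 is close to the threshold: it lost its call on leaving out any 1 library other than replicate 3 with Activin A (log2 fold changes from -0.21 to -0.17), with DESeq2 (-0.20), with limma-trend on TPM (-0.16) and with the length offset (-0.22). Col6a1 and Col6a3 lost theirs with limma-trend on TPM (-0.22 and -0.30), and Col6a3 also with the length offset (-0.40). The ratio of Col6a1 to Col6a2 reads was 1.55 ± 0.07 without and 1.60 ± 0.06 with Activin A (SD, n = 3 each; exact permutation p = 0.3). Col12a1, a collagen that sits on the surface of type I fibrils, averaged 9.00 CPM without and 13.0 CPM with Activin A (-0.52 ± 0.10), and fell further with the length offset (-1.25).

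All 3 basement membrane chains were higher without Activin A, each by about the same factor. Col4a1 (ENSMUSG00000031502, chr8:11198423-11312826, minus strand), a chain of the type IV network, had 105, 103 and 105 CPM without, and 68.3, 72.1 and 66.3 CPM with Activin A. Its partner Col4a2 (ENSMUSG00000031503, chr8:11312805-11449287, plus strand) had 82.2, 82.0 and 81.0 CPM without, and 54.8, 58.2 and 48.1 CPM with. Neither gene overlapped between the groups, at log2 fold changes of 0.60 ± 0.05 for Col4a1 (edgeR adjusted p = 9.5e-07) and 0.60 ± 0.07 for Col4a2 (edgeR adjusted p = 7.23e-06). These genes start head to head, and in the annotation their first exons overlap by 22 bases, shown here because both genes start at its ends (RefSeq, GRCm38.p6, chr8:11312805-11312826, strand of Col4a2, with no letters marked).
Col4a1 and Col4a2: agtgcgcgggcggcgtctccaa
The Col4a1 reads per Col4a2 read were 1.28, 1.25 and 1.30 without and 1.25, 1.24 and 1.38 with Activin A, ranges that overlap. Counting only protein-coding transcripts gave Col4a1 a larger and less certain change (1.43, edgeR adjusted p = 0.051). The estimated reads of its long coding transcript numbered 1100, 1279 and 922 without and 129, 512 and 311 with Activin A, while a long transcript of Col4a1 annotated as a target of nonsense-mediated decay had 105, 20.6 and 228 without and 766, 310 and 250 with. How reads divide between such similar transcripts is an estimate, and the sum over the gene does not depend on it. Col18a1 (ENSMUSG00000001435, chr10:77052178-77166548, minus strand), a basement membrane collagen that carries heparan sulfate and gives rise to endostatin, had 446, 452 and 437 CPM without, and 304, 298 and 268 CPM with Activin A. It did not overlap between the groups (0.62 ± 0.05, edgeR adjusted p = 6.33e-07) and has the highest mean TPM of the listed collagens, over all 6 libraries and in each group.

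Of the 6 adhesive and matricellular glycoproteins, 3 were higher, 1 was lower and 2 were not called. Sparc (ENSMUSG00000018593, chr11:55394500-55423183, minus strand) had 1100, 1106 and 1118 CPM without, and 935, 951 and 896 CPM with Activin A. The groups were apart, but the change was small (0.26 ± 0.05, edgeR adjusted p = 7.7e-04). Thbs1, an adhesive glycoprotein that can activate latent TGF-beta, averaged 628 CPM without and 507 CPM with (0.31 ± 0.05). Fn1, fibronectin, the fibril that cells bind through integrins, averaged 365 CPM without and 311 CPM with (0.23 ± 0.05). That call was lost with limma-trend on TPM (0.11) and with the length offset (0.07). The Fn1 change was larger with protein-coding transcripts only (0.43, edgeR adjusted p = 1.6e-04). Postn, periostin, which links collagen to other matrix proteins, moved the other way. Postn (ENSMUSG00000027750, chr3:54361109-54391037, plus strand) had 3.12, 2.49 and 3.66 CPM without, and 5.01, 5.27 and 6.78 CPM with Activin A, low values whose groups nevertheless did not overlap (-0.86 ± 0.18, edgeR adjusted p = 0.0022). Postn was not called with limma-trend on TPM (-0.69) or with the length offset (-1.22). Tnc, tenascin C, averaged 51.2 CPM without and 52.5 CPM with, and Thbs2 34.0 CPM without and 38.5 CPM with, and neither was called. Thbs2 passed on leaving out replicate 2 (-0.23) or replicate 3 (-0.19) with Activin A and with upper-quartile scaling (-0.22).

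The elastic fibre and microfibril genes divided, with 1 higher, 3 lower and 2 not called. Fbn2, the fibrillin typical of embryonic tissue, rose to 55.5 CPM without against 37.6 CPM with Activin A (0.55 ± 0.07, edgeR adjusted p = 1.5e-05). Fbn1, the main fibrillin of later tissue, averaged 68.0 CPM without and 75.2 CPM with and narrowly missed the threshold (-0.14 ± 0.05, edgeR adjusted p = 0.0506). Fbn1 passed on leaving out replicate 3 with Activin A (-0.15), with upper-quartile scaling (-0.18) and with the filter of 1 CPM (-0.15), and 20.1% of its exon bases face an antisense gene. Eln (ENSMUSG00000029675, chr5:134702593-134747323, minus strand) encodes elastin, the core of the elastic fibre. It had 2.34, 2.16 and 1.72 CPM without, and 3.85, 4.10 and 3.09 CPM with Activin A. Eln was low everywhere, with all libraries without Activin A below those with it (-0.84 ± 0.19, edgeR adjusted p = 0.0046), and its call was lost when only protein-coding transcripts were counted (-0.57). Fbln2, a fibulin that binds fibronectin and elastic fibres, averaged 42.8 CPM without and 63.8 CPM with (-0.58 ± 0.07), a change just under 1.5-fold, as that of Fbn2 was on the higher side. The Fbln2 call was lost with limma-trend on TPM (-0.49) and with the length offset (-0.59). Fbln5, which is needed for elastic fibre assembly, averaged 3.78 CPM without and 5.08 CPM with (-0.43 ± 0.15, edgeR adjusted p = 0.0446). The Fbln5 call is weak: it was lost on leaving out any 1 library other than replicate 3 with Activin A (-0.48 to -0.33), with the replicate block (edgeR adjusted p = 0.064), DESeq2 (-0.43), limma-trend on TPM (-0.20), no count filter (-0.42) and the length offset (-0.37), and the fall was larger with protein-coding transcripts only (-1.21). Fbln1 (ENSMUSG00000006369, chr15:85205949-85286535, plus strand), another fibulin, had 50.4, 54.2 and 51.0 CPM without, and 49.8, 49.6 and 45.1 CPM with, and was not called (0.10 ± 0.06).

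Proteoglycans were lower or not called, 2 genes each, and none was higher. Dcn, decorin, a small leucine-rich proteoglycan that binds collagen fibrils and limits their width, lies at chr10:97479609-97518143 on the plus strand (ENSMUSG00000019929). It had 5.24, 5.93 and 6.88 CPM without, and 11.6, 11.1 and 11.3 CPM with Activin A. Bgn, biglycan, a close relative of decorin (ENSMUSG00000031375, chrX:73483602-73495933, plus strand), had 42.7, 44.5 and 46.1 CPM without, and 68.5, 69.2 and 67.8 CPM with. Both genes were clearly apart between the groups, with log2 fold changes of -0.91 ± 0.12 for Dcn (edgeR adjusted p = 3.98e-05) and -0.63 ± 0.06 for Bgn (edgeR adjusted p = 9.5e-07). Lum, lumican, which lies 47.0 kb from Dcn and also binds collagen fibrils, averaged 1.38 CPM without and 2.13 CPM with. Lum did not pass (-0.64 ± 0.25, edgeR adjusted p = 0.0726) except on leaving out replicate 3 without Activin A (-0.86, edgeR adjusted p = 0.0442). Vcan, versican, a large hyaluronan-binding proteoglycan (ENSMUSG00000021614, chr13:89655312-89742509, minus strand), had 71.4, 69.7 and 77.2 CPM without, and 79.4, 77.1 and 85.8 CPM with. Its groups just overlapped (77.2 CPM in the highest library without and 77.1 CPM in the lowest with), and it was not called (-0.15 ± 0.06), although it passed with upper-quartile scaling (-0.18), the length offset (-0.48) and the GC and length trend removed (-0.14).

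The lysyl oxidases, copper enzymes that start the crosslinks of collagen and elastin, changed unequally, with 1 higher, 2 lower and 1 not called. Lox (ENSMUSG00000024529, chr18:52516067-52529867, minus strand), the founding member of the family, had 15.5, 12.4 and 12.7 CPM without, and 30.1, 24.7 and 30.8 CPM with Activin A. The groups were far apart and the fall was second in size only to that of Col3a1 on the list (-1.07 ± 0.11, edgeR adjusted p = 2.63e-06). Loxl1, which is tied to elastin, averaged 21.3 CPM without and 27.1 CPM with (-0.37 ± 0.10, edgeR adjusted p = 0.0122). The Loxl1 call was lost without replicate 1 (-0.31) or replicate 2 (-0.30) with Activin A or replicate 1 without it (-0.34), with limma-trend on TPM (-0.27) and with the length offset (-0.38). Its replicate 3 with Activin A, at 22.1 CPM, lay near the libraries without it. Loxl2, which also crosslinks type IV collagen (ENSMUSG00000034205, chr14:69609068-69695834, plus strand), had 151, 150 and 158 CPM without, and 133, 126 and 122 CPM with. Loxl2 thus rose slightly and without overlap (0.26 ± 0.05, edgeR adjusted p = 0.0014), a call lost with limma-trend on TPM (0.29). Of the 31-base words of Loxl2, 46.2% also occur in other genes, with the pseudogene Gm21451 sharing the most. No reads were assigned to Gm21451 in any library. Whether some of the Loxl2 reads came from the pseudogene was not tested. Loxl3 averaged 14.0 CPM without and 14.4 CPM with and was not called, and its direction turned with limma-trend on TPM (0.22), with the length offset (0.23) and without replicate 3 of the group without Activin A (0.03).

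Of the procollagen processing genes on the list, 1 of 3 was higher. Serpinh1 (ENSMUSG00000070436, chr7:99345376-99353239, minus strand) had 767, 751 and 754 CPM without, and 617, 623 and 538 CPM with Activin A. It was higher in every library without Activin A (0.35 ± 0.06, edgeR adjusted p = 2.8e-04). P4ha1, a catalytic subunit of prolyl 4-hydroxylase, averaged 183 CPM without and 193 CPM with (-0.08 ± 0.05) and was not called. Plod2, the lysyl hydroxylase that prepares the ends of collagen for crosslinking, averaged 144 CPM without and 130 CPM with (0.15 ± 0.07) and was not called either. That value rested on replicate 3 with Activin A, at 150 CPM beside 121 and 120 CPM in replicates 1 and 2, and without that library Plod2 passed (0.25, edgeR adjusted p = 2.3e-05).

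Among matrix proteases and their inhibitors, 1 gene was higher, 2 were lower and 2 were not called. Mmp2, a gelatinase that also cleaves type IV collagen (ENSMUSG00000031740, chr8:92827291-92853420, plus strand), had 66.3, 67.4 and 70.4 CPM without, and 80.7, 82.3 and 80.7 CPM with Activin A. Its groups did not overlap (-0.26 ± 0.05, edgeR adjusted p = 0.0021), and the call was lost with limma-trend on TPM (-0.18) and the length offset (-0.23). Mmp14, the membrane-bound collagenase that activates the Mmp2 proenzyme, averaged 52.8 CPM without and 45.1 CPM with, in the other direction (0.23 ± 0.06, edgeR adjusted p = 0.0111). The Mmp14 call was lost without replicate 1 with Activin A (0.21) or replicate 3 without it (0.20), with limma-trend on TPM (0.36) and with protein-coding transcripts only (0.18). Timp1, a tissue inhibitor of metalloproteinases, averaged 18.3 CPM without and 24.8 CPM with (-0.44 ± 0.08, edgeR adjusted p = 6.5e-04). The related inhibitors Timp2 (-0.11 ± 0.07) and Timp3 (0.13 ± 0.06) were not called, and 21.3% of the exon bases of Timp3 face the antisense gene Syn3.

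Several matrix genes are known for exons that are included or skipped by stage and tissue, and the share of TPM held by transcripts with such an exon was compared for 6 exons of 5 genes, chosen after their values were seen, among 2 to 7 long coding transcripts of each gene. No difference passed: with 3 libraries against 3 the exact permutation test cannot go below p = 0.1, and the adjusted values over the 6 exons were 0.2 to 0.4. The 204-base exon that defines the type IIA form of Col2a1, the form of chondroprogenitors and other embryonic cells (GRCm38 chr15:98000403-98000606), was held by 69.3%, 72.1% and 61.8% of the compared TPM without, and 48.3%, 39.8% and 60.8% with Activin A (p = 0.1 by that exact test). The means were 67.7% ± 5.3 without and 49.6% ± 10.6 with (SD, n = 3 each), and the nearest libraries of the groups differ by less than their spread. The EIIIB exon of Fn1 (273 bases, chr1:71613763-71614035), typical of embryonic fibronectin, was held by 72.9%, 69.5% and 62.8% without, and 56.4%, 58.6% and 56.5% with Activin A (exact p = 0.1). The share of the EIIIA exon of Fn1 averaged 87.8% ± 5.2 without and 93.3% ± 6.9 with (SD, n = 3 each; exact p = 0.4). The 2880-base exon of Vcan, which encodes one of its regions that carry glycosaminoglycan chains (chr13:89702918-89705797), was held by 24.8%, 22.7% and 28.0% without, and 32.0%, 36.3% and 39.8% with (exact p = 0.1). The variable exons of Fbln2 (45.0% ± 4.4 without and 57.3% ± 7.4 with) and Tnc (31.8% ± 7.6 without and 19.0% ± 7.4 with) overlapped between the groups (SD, n = 3 each; exact p = 0.2 for each). These shares rest on salmon's division of 493 to 4608 estimated reads per library without Activin A and 492 to 4132 with it.

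**Figure D5:**
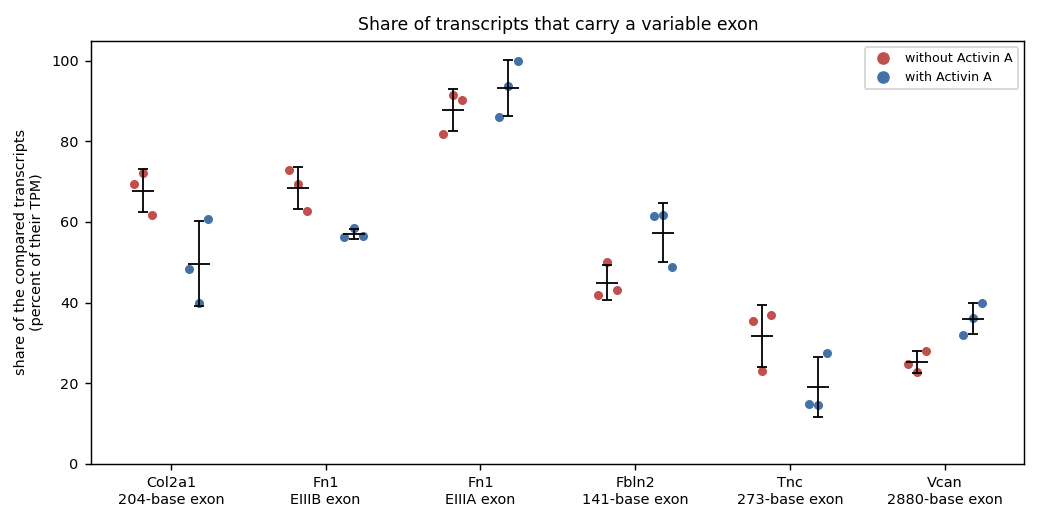
Share of TPM (percent, vertical axis) of the compared transcripts that carry each of 6 variable exons, in each library without (red) and with (blue) Activin A, with mean ± SD (n = 3 each). The groups do not overlap for the exons of Col2a1 and Vcan and for EIIIB of Fn1, and they overlap for the other 3.

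Genes of the same pathways that are not on the list were counted in the same test. Among 19 tested other collagens, 6 were higher and 3 lower (47.4% called, against 29.2% of all tested genes). The higher ones included the type IV chains Col4a5 (29.6 CPM without and 20.9 CPM with, log2 fold 0.49 ± 0.09) and Col4a6 (19.6 CPM without and 14.3 CPM with, 0.45 ± 0.09), which share the direction of Col4a1 and Col4a2. Col8a1, a short-chain collagen, was lower (6.80 CPM without and 14.0 CPM with, -1.03 ± 0.12). The count of lower genes came to 1 on leaving out replicate 2 with Activin A or replicate 1 or 3 without it. Among 27 other genes of procollagen processing, 6 were higher and 2 lower, so that 29.6% were called, near the 29.2% of all tested genes. P3h2, a prolyl 3-hydroxylase known to act on type IV collagen, averaged 8.53 CPM without and 2.28 CPM with Activin A (1.95 ± 0.19, edgeR adjusted p = 1.89e-06). Bmp1, the proteinase that trims the C-propeptide of procollagen, was higher (0.34 ± 0.06), while Pcolce, the enhancer of that cleavage, was lower (24.7 CPM without and 37.5 CPM with, -0.61 ± 0.07). The 2 lower genes became 1 without replicate 1 with Activin A and 5 without replicate 3 with it.

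Elastic fibre and microfibril genes outside the list numbered 2 higher and 3 lower of 16 tested (31.2% called, near the 29.2% of all tested genes). Adamts10 was higher (0.29 ± 0.07), though its direction turned with protein-coding transcripts only (-0.44). Emilin3 (-1.17 ± 0.17) and Ltbp3 (-0.43 ± 0.09), a binding protein of latent TGF-beta, were lower. The 2 higher became 1 on leaving out replicate 1 of either group. Other glycoproteins and proteoglycans numbered 5 higher and 9 lower of 22 (63.6% called). Ccn2, a matricellular protein that is a classic TGF-beta target in fibroblasts, averaged 117 CPM without and 229 CPM with Activin A (-0.97 ± 0.05, edgeR adjusted p = 2.86e-09), and Matn2, a filament-forming adaptor, averaged 31.1 CPM without and 21.6 CPM with (0.52 ± 0.07). Other proteases and inhibitors divided almost evenly, with 6 higher and 7 lower of 24 (54.2% called). Adamts15, a versican-cleaving protease, averaged 42.3 CPM without and 19.8 CPM with (1.10 ± 0.07), and Mmp11 averaged 13.8 CPM without and 28.1 CPM with (-1.03 ± 0.09). Of 9 collagen receptors, 33.3% were called, again near the share of all genes. Itgb1, the beta chain of the collagen-binding integrins, was higher (0.21 ± 0.05), and Lair1 (-0.90 ± 0.15) and Adgrg1 (-0.47 ± 0.14) were lower. The 2 lower receptors became 1 without replicate 1 or 2 with Activin A or replicate 3 without it, and 4 without replicate 3 with it.

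Markers of other matrix-producing cells were low or, between the lists, mixed in direction. The tested endothelial markers all had positive log2 fold changes (0.23 to 2.18), and the tested early mesoderm markers all had negative ones (-0.91 to -0.64). In each list below, 50% to 66.7% of the tested genes were called, on only 3 to 5 genes. Over all tested genes 29.2% were called, 14.0% higher and 15.2% lower. The sum over 12 extraembryonic endoderm markers, cells known for type IV collagen, was 53.4 to 57.0 CPM without and 46.4 to 50.9 CPM with Activin A, with 2 higher and 1 lower of 5 tested. Dab2, the most abundant, averaged 39.7 CPM without and 31.5 CPM with (0.34 ± 0.07), while Ttr was at 0 in every library and Gata4, Gata6, Sox17, Foxa2 and Afp averaged under 1 CPM. Leaving out any 1 library removed the call of Sox7 and that of Amn. Of 4 tested endothelial markers, 2 were higher, Kdr (7.31 CPM without and 1.62 CPM with, 2.18 ± 0.17) and Tek. The sum of the 6 listed was 17.2 to 19.6 CPM without and 7.82 to 9.98 CPM with. Of 3 tested early mesoderm markers, 2 were lower, and none was called on leaving out replicate 1 with Activin A or replicate 1 or 2 without it, or 1 without replicate 2 or 3 with it. Mesp1 was at 0 in every library, and the sum of the 10 mesoderm markers was 6.16 to 8.82 CPM without and 10.2 to 11.1 CPM with. Of 5 tested neural crest and chondrogenic markers, Sox9 (20.5 CPM without and 11.5 CPM with, 0.84 ± 0.10) and Col11a1 were higher and Foxd3 (0.588 CPM without and 3.18 CPM with, -2.42 ± 0.25) was lower, with a sum of 43.9 to 50.1 CPM without and 35.0 to 37.2 CPM with over 8 markers. Col11a1 lost its call without replicate 2 of the group without Activin A. The mean of Foxd3 without Activin A lies below what the count filter asks for. Foxd3 was thus tested only because of its libraries with Activin A, where it was high. Ddr2 and Mfap5 stand among both the fibroblast markers and the matrix lists, as Col9a1, Col11a1, Acan and Matn4 do among the chondrogenic markers. The part of any of these cell types in the matrix results was not tested.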

How the data were processed

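Poly(A) RNA was measured in 6 libraries, with 1 transcript table each. Per the file headers, the deposited columns are those that Salmon writes. The deposited estimated counts are unnormalized reads assigned to transcripts and need not be whole, and each deposited TPM value is a level per transcript length. Salmon, DESeq2 and edgeR are named in the submitters' processing notes, with no version. For the genome build, annotation and strand setting of the authors, nothing is given in the sources used here. Lengths and effective lengths were deposited as well. The effective lengths, the same in all 6 libraries, were averaged per gene and library with TPM as weights to give the transcript length offset. That offset differs between libraries only through the estimated division of TPM between transcripts, on which limma-trend on TPM depends too.

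Transcript identifiers, version ignored, were looked up in GENCODE M21 (GRCm38). Of 133618, 133399 matched, and the other 219, with 0.13% to 0.15% of reads, were left out. Estimated counts were summed per gene and rounded. Genes were filtered with filterByExpr (minimum count 10, minimum total 15), scaled by TMM and tested with a robust quasi-likelihood F test in edgeR 4.0.16 (R 4.3.3), with Benjamini-Hochberg adjustment over 15448 genes and a threshold of 0.05. The method was tested on simulated data. Standard errors are the log2 fold change divided by the square root of F. Counting error limits the low genes, most of all Lum, Eln, Postn and Fbln5.

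Other settings tried were upper-quartile or RLE scaling, limma-trend (limma 3.58.1) on log2(TPM + 1), DESeq2 1.42.0, no count filter, a filter of 1 CPM in 3 libraries, a transcript length offset, protein-coding transcripts only, a block on the replicate number and the omission of each library. A setting that takes out the trend of every library on GC content and on length (mgcv 1.9.3) was added after the data had been seen. The members, their roles and the 12 related and marker lists were chosen with earlier results of these data known. Values per library are given for called members of at least 1.5-fold and for the member with the highest mean TPM of each role. From the other lists, genes named come from up to 3 called genes per direction with the smallest p-values and the gene with the highest mean TPM, and markers that were not called or not tested are named besides to show a list's range. Ctgf, Cyr61, Nov and Gpr56 of the lists are older names of Ccn2, Ccn1, Ccn3 and Adgrg1.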

Additional observations from a re-analysis of the deposited data

How the results depend on the processing

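Over 16 alternatives for each of the 41 matrix genes, 590 of 656 values kept their direction and their side of the threshold, 43 lost a call, 19 gained one and 4 reversed. Of the 29 called genes, 15 kept their call under every alternative run. The count of matrix genes called higher was 10 to 16, with 13 to 15 on leaving out 1 library, and the count called lower was 7 with limma-trend on TPM, 9 with the length offset, 20 with the GC and length trend removed, and 12 to 17 on leaving out 1 library. Over all genes, limma-trend called 1559 (778 higher and 781 lower) and the length offset 2050 (937 higher and 1113 lower), against 4505 as reported, and leaving out 1 library gave 3246 to 5689 (1483 to 2808 higher and 1763 to 2881 lower). The cause of these differences was not tested. Reversals concerned, outside the matrix list and within it, Adamts10 (-0.44 with protein-coding transcripts only), Adamts2 (0.024 with the length offset), Col7a1 (-0.44 with limma-trend and -0.55 with the length offset), P4hb (-0.0062 and -0.049 in the same order) and Loxl3 (0.22 and 0.23 in the same order). Leaving out 1 library gave -0.071 to 0.029 for Loxl3, positive without replicate 3 of the group without Activin A, and -0.088 to 0.0037 for Efemp2 and -0.086 to 0.0061 for Tnc, positive without replicate 1 with Activin A. Once the GC and length trend was removed, Tnc passed (-0.15), and so did P4ha1 (-0.10), Plod2 (0.13), Thbs2 (-0.27) and Fbn1 (-0.28).

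Same-numbered libraries of the groups did not deviate together (correlations of -0.03, -0.06 and -0.06), so the numbers give no pairing. With the replicate number as a block, 15 matrix genes were higher and 14 lower, and 2125 of all genes were higher and 2297 lower. On leaving out 1 library, the difference in exon share stayed between 13.2 and 23.7 percentage points for Col2a1, 9.04 and 14.1 for EIIIB, -8.99 and -2.05 for EIIIA, -16.6 and -10.2 for Fbln2, 10.2 and 17.2 for Tnc, and -12.9 and -8.99 for Vcan, and shares of reads in place of TPM kept each direction. The role counts of 1 or 2 moved with single libraries: lower glycoproteins were 2 without replicate 2 or 3 with Activin A, higher processing genes 2 without replicate 3 with it, higher proteases 0 without replicate 1 with it or replicate 3 without it, and lower lysyl oxidases 1 without replicate 1 or 2 with it or replicate 1 without it.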
